A study of Mus musculus with 2 samples.

Results

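The genes described here are Lmx1b, Lmx1a, En1, Lhx2, Lhx9 and Ldb1, 6 of 21938 protein-coding genes, which cover dorsoventral patterning of the limb and the LIM homeobox family with its shared cofactor. They were read through their open chromatin in whole limb of the mouse embryo at day 14.5, strain B6NCrl, males and females pooled and described as healthy, with no treatment and no other group. Open chromatin was mapped by DNase-seq, which finds DNA that the nuclease DNase I can cut, in 1 library for each of 2 biological replicates that carry the same donor identifier, so the spread between them may be technical. A peak belonged to a gene if any part of it lay within 500 bp of any of its transcription start sites (TSSs), or if it was distal, meaning that its centre was over 1 kb away from the TSS of any coding gene and that the nearest such TSS, within 100 kb, was that gene's. By this rule the 6 genes hold 129 of 208674 peaks of replicate 1 (11 at a TSS and 118 distal) and 111 of 196593 peaks of replicate 2 (12 at a TSS and 99 distal). A peak is called shared here if at least 50% of it is covered by 1 peak of the other replicate. Of the peaks of replicate 1, 67 distal and 7 TSS peaks were shared.

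The back and palm sides of the limb are set by an exchange between skin and mesenchyme. Dorsal ectoderm makes the signal Wnt7a, which turns on Lmx1b in the mesenchyme beneath it, and Lmx1b gives that mesenchyme its dorsal fate. In ventral ectoderm BMP signalling turns on En1, a homeodomain repressor that keeps Wnt7a off. Lhx2 and Lhx9 act in mesenchyme near the tip of the limb during outgrowth. Lmx1a is the closest relative of Lmx1b and is known mainly from the roof plate and the midbrain. Ldb1 is the adaptor that binds the LIM domains of Lmx1b, Lmx1a, Lhx2 and Lhx9. Because dorsal and ventral sides, skin and mesenchyme were processed together, a weak peak in few cells and a weakly open site in many cells cannot be told apart.

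The peaks that carry the results are given as sequence, each read 5′ to 3′ on the plus strand of GRCm38 (mm10). The set holds the strongest shared distal peak of 5 genes, by percentile averaged over the replicates. It holds the peaks nearest the outermost starts of En1, Lmx1b and Ldb1, and 2 members of a far upstream group at Lmx1b. It also holds the Lhx2 peak with the only homeodomain site among the shared distal peaks, and the farthest shared peak of Lhx9. Capitals mark matches to any of the 17 motifs searched, on either strand. En1, Lhx2 and Lmx1a are transcribed from the plus strand, and Lmx1b, Lhx9 and Ldb1 from the minus strand.
En1 start, chr1:120602216-120602365: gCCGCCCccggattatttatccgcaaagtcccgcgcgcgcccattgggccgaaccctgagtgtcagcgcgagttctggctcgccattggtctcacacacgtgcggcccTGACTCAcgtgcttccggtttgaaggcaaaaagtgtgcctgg
Lmx1b upstream, chr2:33641076-33641225: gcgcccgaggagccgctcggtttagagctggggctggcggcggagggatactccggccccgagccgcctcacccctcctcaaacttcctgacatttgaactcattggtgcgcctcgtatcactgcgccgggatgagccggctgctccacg
Ldb1 start, chr19:46045356-46045505: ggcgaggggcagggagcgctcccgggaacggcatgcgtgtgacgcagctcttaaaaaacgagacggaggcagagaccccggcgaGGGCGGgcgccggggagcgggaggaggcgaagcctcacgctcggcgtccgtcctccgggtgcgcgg
Lmx1b strongest distal, chr2:33643196-33643345: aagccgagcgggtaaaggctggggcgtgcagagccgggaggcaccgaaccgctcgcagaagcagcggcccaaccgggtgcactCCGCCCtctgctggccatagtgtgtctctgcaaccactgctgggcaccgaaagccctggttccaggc
Lmx1b far upstream, group member, chr2:33701516-33701665: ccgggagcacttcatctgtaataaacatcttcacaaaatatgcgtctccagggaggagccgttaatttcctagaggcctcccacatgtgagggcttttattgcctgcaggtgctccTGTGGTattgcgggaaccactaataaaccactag
Lmx1b far upstream, neighbouring group member, chr2:33701816-33701965: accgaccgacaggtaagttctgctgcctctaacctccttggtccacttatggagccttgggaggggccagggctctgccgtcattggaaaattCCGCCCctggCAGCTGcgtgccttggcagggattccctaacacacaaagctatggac
En1 strongest distal, chr1:120586596-120586745: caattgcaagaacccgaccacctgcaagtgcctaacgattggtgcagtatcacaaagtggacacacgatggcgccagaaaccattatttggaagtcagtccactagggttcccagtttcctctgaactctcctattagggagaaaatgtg
Lhx2 strongest distal, chr2:38418096-38418245: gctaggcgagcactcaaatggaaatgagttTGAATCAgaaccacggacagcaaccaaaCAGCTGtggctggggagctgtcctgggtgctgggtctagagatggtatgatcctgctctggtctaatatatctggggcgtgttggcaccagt
Lhx2 with the homeodomain site, chr2:38431676-38431825: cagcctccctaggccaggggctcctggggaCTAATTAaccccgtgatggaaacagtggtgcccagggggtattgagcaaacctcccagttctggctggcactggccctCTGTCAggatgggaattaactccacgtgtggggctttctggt
Lmx1a strongest distal, chr1:167782196-167782345: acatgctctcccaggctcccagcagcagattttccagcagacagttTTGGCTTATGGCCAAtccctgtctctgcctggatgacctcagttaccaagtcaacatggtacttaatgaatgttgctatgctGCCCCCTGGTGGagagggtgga
Lhx9 farthest distal, chr1:138752476-138752625: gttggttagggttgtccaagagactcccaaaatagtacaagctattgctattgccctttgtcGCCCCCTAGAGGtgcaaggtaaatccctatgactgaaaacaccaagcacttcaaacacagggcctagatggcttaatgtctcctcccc
Ldb1 strongest distal, chr19:46042056-46042205: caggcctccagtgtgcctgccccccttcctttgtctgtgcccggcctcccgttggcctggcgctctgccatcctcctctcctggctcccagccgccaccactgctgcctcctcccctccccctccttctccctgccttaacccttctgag

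The peak signal is the authors' own whole-number value, whose median was 42 for replicate 1 and 31 for replicate 2, so each peak is also placed by its percentile within its own list. Read depth is unknown, and a missing peak means only that none was called. As a check of the tissue label, 8 of 8 limb mesenchyme markers and 4 of 5 limb ectoderm markers had a shared TSS peak, with Krt14 as the exception, and so did 2 of 7 neural markers (Sox1 and Pax2). Over all protein-coding genes the share was 65.1%. Lmx1a, Lmx1b, En1, Lhx2 and Lhx9 are also used in neural tube or brain, and the part of such tissue in their peaks was not tested.

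The first question was whether the starts of these genes were open. En1, Lhx2, Lhx9 and Ldb1 had a shared TSS peak, 4 of 6 genes, against 65.1% of all protein-coding genes, so the 6 genes as a list lay close to the background. Lmx1b and Lmx1a had none. In replicate 1 alone all 6 had a TSS peak, against 69.4% of genes, and in replicate 2 alone 5 had one, against 68.2%.

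En1 (chromosome 1, 120602418 to 120607992) has a single annotated TSS. Its shared peak, chr1:120602216-120602365, lay 127 bp upstream of that TSS and had the same coordinates in both replicates. Replicate 1 gave it a signal of 98 and replicate 2 one of 65, at percentiles 92.6 and 89.3. The hotspot around it, a region the authors called with a −log10 q-value capped at 100, reached 5.15 in replicate 1 and 100 in replicate 2. Replicate 2 also had a weaker peak of signal 33, centred 533 bp inside the gene, that replicate 1 lacked.

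Lmx1b (chromosome 2, 33560965 to 33640511) was the gene that the 500 bp limit decided. Its only TSS peak, of signal 54 in replicate 1, lay at an internal start 8.72 kb into the gene, and replicate 2 had none within the limit. Just outside the limit at the same start, 578 bp away by the nearer edge, a shared peak had signals of 53 and 38. Another shared peak, 835 bp from a different start, had 60 and 37. A much stronger peak shown above, chr2:33641076-33641225, had its nearer edge 565 bp upstream of the outermost TSS. It had the same coordinates in both replicates, signals of 99 and 80 (percentiles 92.8 and 94.0) and hotspots at the ceiling in both. That peak covers the TSS, at position 33641193 on the plus strand, of the antisense noncoding gene C130021I20Rik, so it belongs to the start of that transcript as much as to Lmx1b. With a window of 1000 bp Lmx1b counted as open and the total was 5 of 6, against 67.3% of all genes.

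Lmx1a (chromosome 1, 167689237 to 167848741) had a peak at its start in each replicate, but the peaks did not coincide. Replicate 1 had 1 of signal 53 (percentile 66.8), centred 306 bp upstream, and replicate 2 had 1 of signal 32 (percentile 52.6), centred 146 bp upstream, with no base in common. The hotspot values there were 4 and 2.28. The paralogs thus differed near their outermost starts, with ceiling hotspots at Lmx1b and lower ones at Lmx1a in both replicates. The strong shared peak near the Lmx1b start covers the TSS of C130021I20Rik, so the contrast cannot be assigned to Lmx1b alone. The 1000 bp around both starts are rich in CpG. The ratio of observed to expected CpGs was 0.837 at Lmx1b and 0.744 at Lmx1a, against a median of 0.552 over all genes.

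Lhx2 (chromosome 2, 38339281 to 38369733) carried the strongest TSS peak of the 6 genes in replicate 1. The peak chr2:38350956-38351105 had signals of 131 and 103, percentiles 98.6 and 97.7, and ceiling hotspots in both replicates. It lay 272 bp past an internal TSS and 11.75 kb into the gene. At the outermost annotated start no hotspot was called in either replicate.

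Lhx9 (chromosome 1, 138825186 to 138848577) was also open at internal starts. Shared peaks 6.15 kb and 6.63 kb into the gene had signals of 74 and 63 in replicate 1, and replicate 2 gave them 42 and 36. Their hotspots had values of 3.80 to 4.55 in both replicates. Around the outermost start the replicates placed their peaks differently. Replicate 1 had signals of 50 and 42 upstream of it, and replicate 2 had 25 and 21 in the intron downstream of it, with none shared. The hotspot within 500 bp of that start had a value of 1.57 in replicate 1 but stood at the ceiling in replicate 2.

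Ldb1 (chromosome 19, 46031570 to 46045214) had 3 shared TSS peaks, the most of the 6 genes. The 1 at an internal start 5.54 kb into the gene had signals of 127 and 107. The 1 just upstream of the outermost start, chr19:46045356-46045505, had 112 and 85. The third, 723 bp into the gene, had 99 and 77, and all 3 lay in ceiling hotspots in both replicates. Pprc1, a coactivator gene read in the opposite direction, starts in the same region, and for the last of these peaks its TSS is the nearer 1. The peak just upstream of the outermost Ldb1 start lies in an intron of Pprc1. The signal at both peaks cannot be assigned to either gene.

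**Figure D1:**
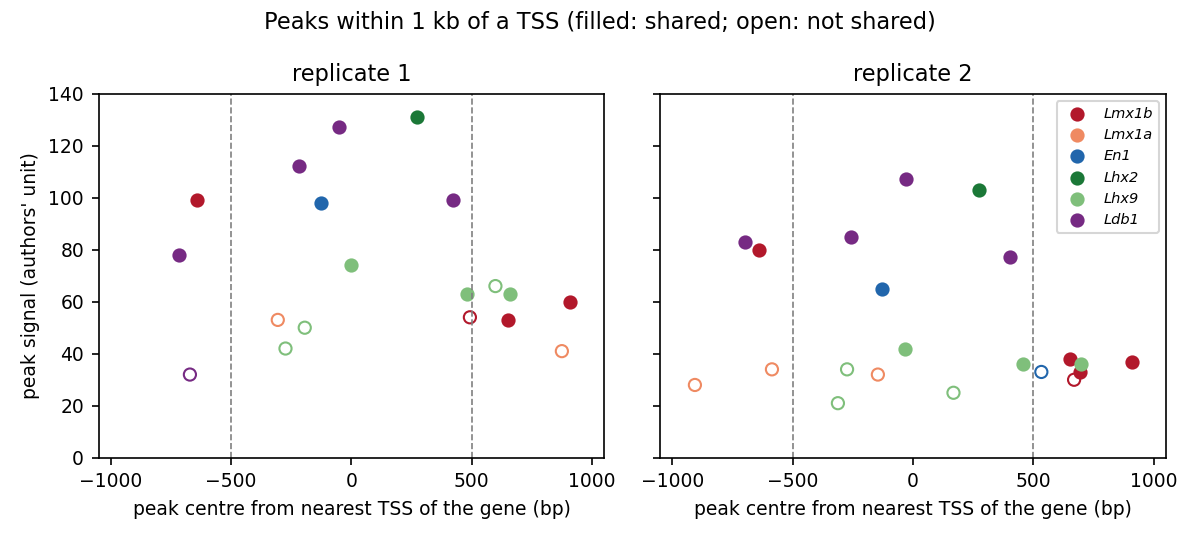
Peaks near the annotated starts of the 6 genes. The horizontal axis is the distance of the peak centre from the nearest TSS of the gene in bp, positive along transcription, the vertical axis is the peak signal in the authors' unit, and the dashed lines mark 500 bp, a limit applied to the nearer edge of the peak and not to its centre. Filled points are shared and open points are not. Lhx2 and Ldb1 peaks stand highest, and the strong Lmx1b peak, with signals of 99 and 80, lies outside the limit.

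Peaks near the limits of the rule were as follows. Just inside 500 bp, by the nearer edge, lay the Lmx1b peak of replicate 1 at 418 bp with signal 54 and the En1 peak of replicate 2 at 458 bp with signal 33. Just outside lay an Lhx9 peak of replicate 1 at 524 bp with signal 66 and an Lmx1a peak of replicate 2 at 512 bp with signal 34. Between the limits for TSS and distal peaks fell 8 peaks of replicate 1 and 9 of replicate 2, which belong to neither class. Just past the distal limit of 1 kb, by the centre, lay an Lmx1a peak of replicate 1 at 1026 bp with signal 41 and an Lmx1b peak of replicate 2 at 1032 bp with signal 32. Just short of it, at 909 bp, was an Lmx1b peak with signals of 60 and 37.

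The second question was how many distal peaks each gene held. Overlapping calls count separately, and the 67 shared distal peaks include 1 such pair at Lmx1a and 1 at Lhx2. All 6 genes had at least 4 shared distal peaks, while 69.8% of protein-coding genes had fewer than 4 and 64.9% had any. Lmx1b led with 21, followed by Lhx2 with 13, Lmx1a with 12, En1 with 11, Lhx9 with 6 and Ldb1 with 4, for a median of 11.5 against a median of 1 over all genes. Fewer shared distal peaks than Lmx1b were held by 97.9% of genes, and fewer than Lhx9 by 79.6%. The lists of single replicates gave 32 and 35 peaks for Lmx1b, 22 and 18 for Lhx2, 24 and 13 for Lmx1a, 23 and 15 for En1, 10 and 13 for Lhx9 and 7 and 5 for Ldb1, in replicate 1 and replicate 2 in that order. Lmx1b was highest in both lists and Ldb1 lowest in both, whereas Lhx2, Lmx1a and En1 changed places between the replicates and their order does not hold beyond that spread.

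**Figure D2:**
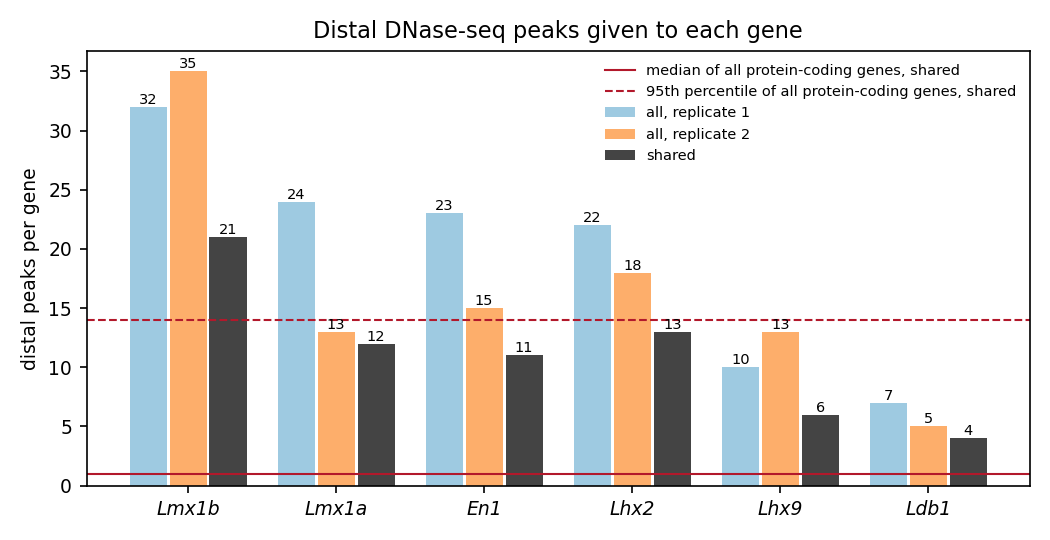
Distal peaks given to each gene, with the number of peaks on the vertical axis and bars for replicate 1, replicate 2 and the shared peaks. Lmx1b has 21 shared distal peaks and Ldb1 has 4, against a median of 1 over all protein-coding genes.

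A gene with more surrounding sequence can collect more peaks, so the counts were also divided by territory, the sequence that lies beyond 1 kb of all coding starts and is nearest to the gene within 100 kb. The order then changed. Ldb1, whose territory is only 22.461 kb, had 17.8 shared distal peaks per 100 kb, a density above that of 96.9% of genes. Lmx1b had 13.1 per 100 kb in 160.183 kb, Lhx2 11.8, Lmx1a 8.99, En1 7.50 and Lhx9 5.42. With hotspots in place of peaks, an alternative added after the data were seen, Ldb1 had 2 sites or 8.90 per 100 kb and Lmx1b had 17 or 10.6, so the order of these genes turned round. The 6 genes together had 9.79 per 100 kb, and the whole genome's territories had 4.79. The 8 limb mesenchyme markers of the tissue check had 10.3 per 100 kb and a median of 10.5 shared distal peaks. A density like that of the 6 genes was thus not particular to them. The 5 limb ectoderm markers had 5.99 per 100 kb and a median of 7, and the 7 neural markers 4.74 and 5. Over the 18792 genes with a territory of at least 10 kb the median was 3.81 and the 90th percentile 11.9, so Lmx1b and Ldb1 lay above that percentile and the other 4 below it. The shared distal peaks ran from 1.57 to 73.9 kb from the nearest start at Lmx1b, from 5.61 to 77.9 kb at Lhx2, from 13.9 to 99.994 kb at Lmx1a, from 4.61 to 99.8 kb at En1, from 1.91 to 81.1 kb at Lhx9 and from 1.42 to 9.75 kb at Ldb1.

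At Lmx1b 7 of the 21 shared distal peaks stood in 2 close groups, and the others lay singly across the locus. The strongest by mean percentile, chr2:33643196-33643345, lay 2.76 kb upstream of the outermost start, inside C130021I20Rik, with signals of 94 and 72. Just past the 3′ end of the gene stood 3 shared peaks within 1690 bp, with signals of 83 to 88 in replicate 1 and 48 to 59 in replicate 2. On the other side, 60.4 to 62.4 kb upstream, 4 shared peaks stood within 2170 bp, with signals of 56 to 79 in replicate 1 and 37 to 48 in replicate 2. These 4, of which the sequences of 2 are shown above, are in intergenic sequence. Of all 21, 14 were intergenic with respect to coding genes and 7 intronic.

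Not every shared Lmx1b peak was of like rank in both replicates. The peak 49.8 kb upstream, singled out after its values were seen, scored 71 in replicate 1 but 23 in replicate 2, at percentiles 81.3 and 25.5. It had the largest difference in percentile, 55.8 points, of the 67 shared distal peaks, and 6 of the 67 differed by more than 25 points.

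**Figure D3:**
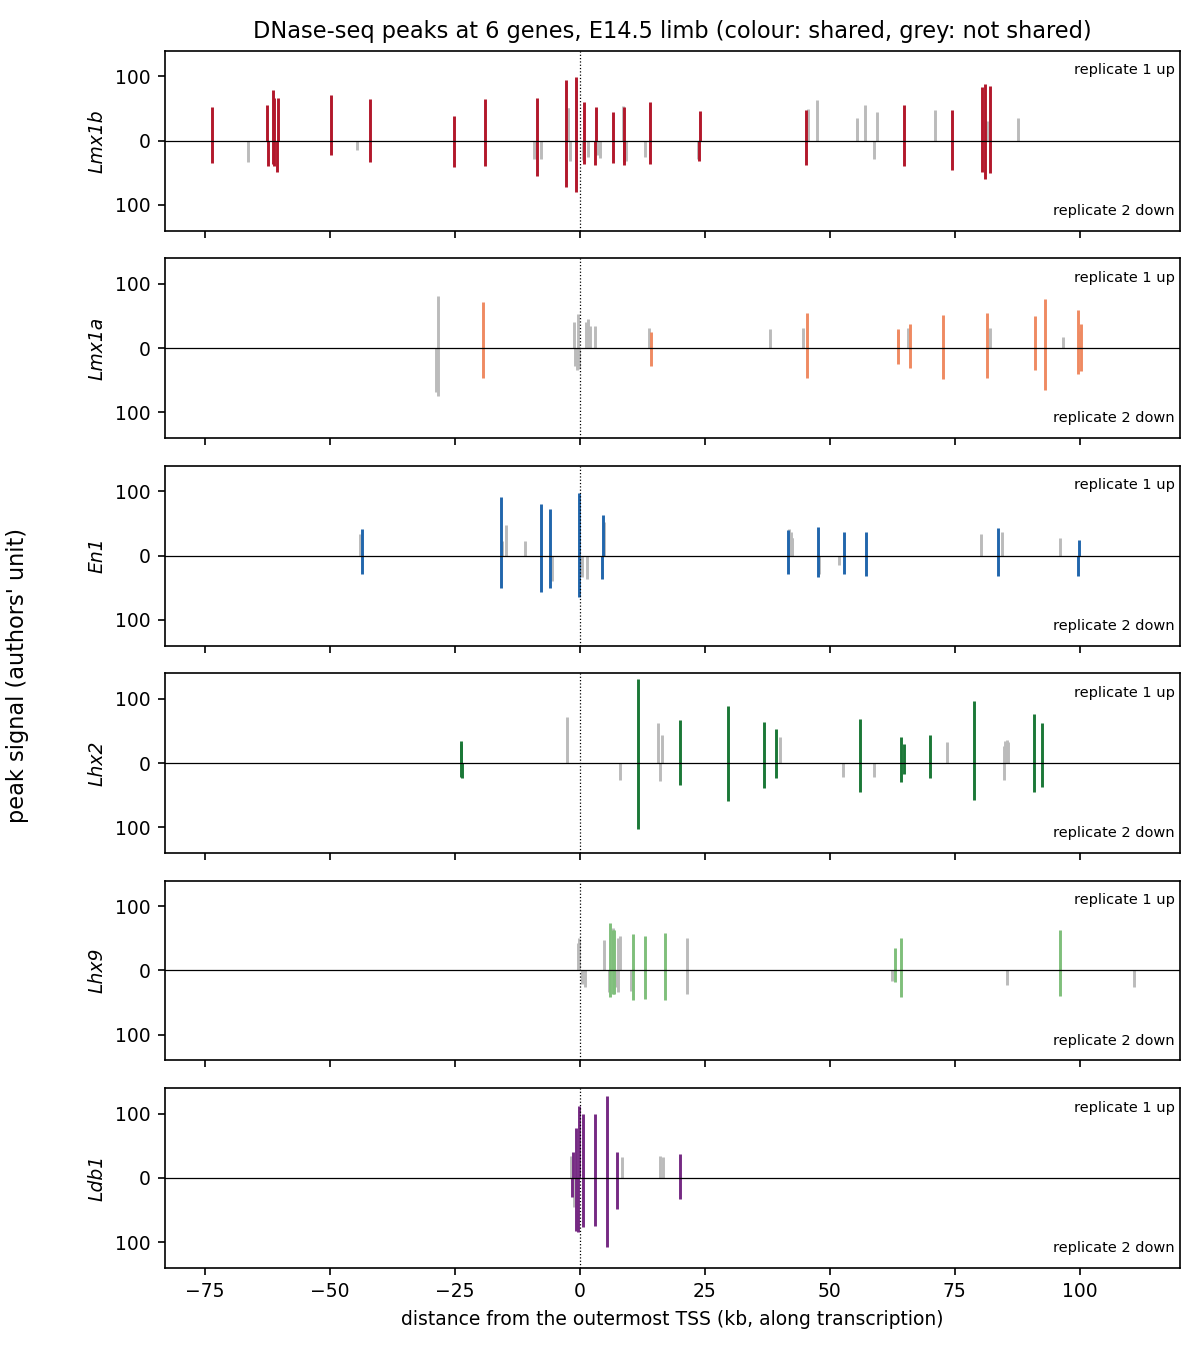
Peaks along the 6 genes, with distance from the outermost TSS in kb on the horizontal axis and the peak signal in the authors' unit on the vertical axis, replicate 1 upward and replicate 2 downward. Coloured lines are shared peaks and grey lines are peaks that did not meet the 50% overlap. Lmx1b shows the groups 60.4 to 62.4 kb upstream and 80.5 to 82.1 kb downstream of its start, while the peaks of Ldb1 lie close to its starts.

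En1 had its strongest distal sites upstream. The peak chr1:120586596-120586745, 15.7 kb upstream, had signals of 91 and 51. The peaks at 7.67 kb, with 81 and 56, and at 5.85 kb, with 72 and 50, were close to it in mean percentile, and the first of them was the higher in replicate 2. Downstream of the gene, 5 weaker shared peaks lay in the noncoding gene 2610027F03Rik, with 44 as the highest signal in replicate 1. The distance limit cut through the En1 region more than any other. A further 30 peaks of replicate 1 and 25 of replicate 2 had an En1 TSS as the nearest one at over 100 kb and were not counted. The shared peak just inside the limit, at 99.8 kb, gave 25 in replicate 1 against 32 in replicate 2, and the nearest peak outside it had 24 in each replicate.

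Most shared Lhx2 sites, 11 of 13, were intergenic, and 11 lay downstream of the nearest Lhx2 start. The highest by mean percentile, chr2:38418096-38418245, was 64.4 kb past that start with signals of 96 and 57. A peak in a coding exon of Lhx2 was close to it with 89 and 59, lower in replicate 1 and higher in replicate 2. Then came 1 at 76.3 kb with 77 and 45, inside the noncoding gene Gm13589. All 3 lay in ceiling hotspots in both replicates.

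Lmx1a differed from Lmx1b in where its sites lay. Of its 12 shared distal peaks 11 were in its own introns, against 7 of 21 at Lmx1b, and none was within 10 kb of a start. The body of Lmx1a reaches past the 100 kb limit, while that of Lmx1b ends inside it. How far gene length sets this contrast was not tested. The strongest shared distal peak of Lmx1a, chr1:167782196-167782345, lay 92.7 kb into the gene with signals of 76 and 65. A site 19.3 kb upstream had 72 and 46. The shared count misses a strong pair farther upstream, at about the same place in both replicates but with only 30 bp in common. There replicate 1 had 1 peak of signal 81 at -28.4 kb from the start, and replicate 2 had 74 at -28.2 kb and 68 at -28.6 kb. Of the Lmx1a peaks of replicate 1, 12 of 24 were unshared, and of those of replicate 2, 2 of 13. Lmx1a also continues past the limit, with 17 peaks of replicate 1 and 12 of replicate 2 nearest to it at over 100 kb.

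The Lhx9 sites of highest mean percentile were an exonic peak with signals of 58 and 46 and an intronic one with 57 and 46. The farthest shared one, chr1:138752476-138752625, was 81.1 kb downstream of the nearest start with 63 and 39, the highest of the gene's shared distal signals in replicate 1, and it was the only shared Lhx9 distal peak in a ceiling hotspot, in both replicates. Ldb1 had a single strong distal peak, chr19:46042056-46042205, in its own intron, with signals of 99 and 75 and percentiles of 92.8 in each replicate. Its other 3 shared distal peaks had signals of 37 to 40 in replicate 1 and 29 to 48 in replicate 2. The peak among them 1.42 kb upstream of the outermost start lies in an intron of Pprc1.

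Over the 6 genes, the distal peaks recurred about as often as distal peaks in general. In replicate 1, 67 of 118 were shared (56.8%, 95% Wilson interval 47.8 to 65.4), against 60.2% of all distal peaks. In replicate 2, 66 of 99 were shared (66.7%, interval 56.9 to 75.2), against 65.0%. Both backgrounds lie inside the intervals, which cover the number of peaks and not variation between embryos. Unshared peaks, of which 5 in replicate 1 and 4 in replicate 2 partly overlapped a peak of the other replicate, were weaker, with a median signal of 35 (51 peaks of replicate 1) and 28 (33 peaks of replicate 2), against 55 and 38.5 for those shared.

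The shared distal peaks of the 6 genes had a median signal of 55 in replicate 1 and 38 in replicate 2, against 50 and 36 over all 75905 shared distal peaks. Their median percentile, averaged over the replicates, was 67.7 against 61.4. It was 68.2 at Lmx1b, 65.5 at Lmx1a, 52.6 at En1, 67.9 at Lhx2, 70.9 at Lhx9 and 55.0 at Ldb1. Fewer of them lay in ceiling hotspots, 23 of 67 (34.3%) against 49.7% in replicate 1 and 17 of 67 (25.4%) against 39.3% in replicate 2. Across the 67 peaks, which share libraries and neighbourhoods, Spearman's rho between the replicates' signals was 0.757, against 0.827 across all shared distal peaks. Within single genes rho was 0.949 at Lhx2, 0.838 at Lmx1a, 0.813 at En1, 0.491 at Lmx1b and 0.406 at Lhx9. It was not computed for the 4 peaks of Ldb1.

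**Figure D4:**
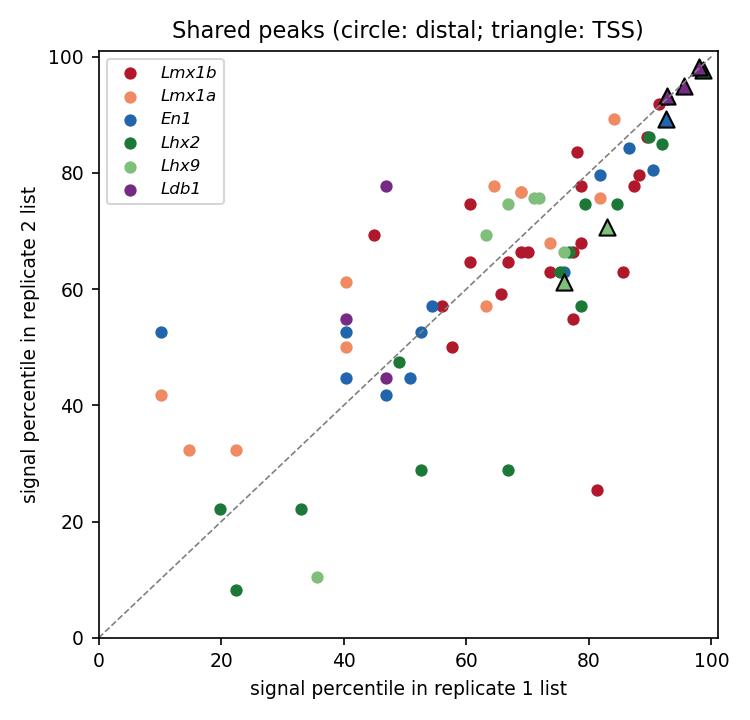
Signal percentile of each shared peak of the 6 genes, in replicate 1 on the horizontal axis and replicate 2 on the vertical axis, coloured by gene. Circles are distal peaks and triangles are TSS peaks. Most of the 67 distal points follow the diagonal (Spearman's rho 0.757, pooled over the genes and lower at Lmx1b and Lhx9). The Lmx1b peak at percentiles 81.3 and 25.5 lies farthest from it.

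Pooled over the 6 genes, the sites lay farther from starts than distal sites do in general, but not at every gene. Of the 67, 29 (43.3%) were over 50 kb from the nearest TSS, against 18.5% of all shared distal peaks. These were 9 of 12 at Lmx1a, 10 of 21 at Lmx1b, 5 of 13 at Lhx2 and 4 of 11 at En1. Lhx9, with 110.778 kb of territory, had 1 of 6, and Ldb1 had 0 of 4. Territories that reach out to 100 kb allow such distances, and that of Ldb1, which has no shared distal peak beyond 9.75 kb, does not. Of the 67, 40 (59.7%) were intergenic, against 46.8%. That share was uneven too, with 10 of 11 at En1, 11 of 13 at Lhx2 and 14 of 21 at Lmx1b. Lhx9 had 3 of 6, Lmx1a 1 of 12 and Ldb1 1 of 4. The median GC content was 52.7% against 49.3%, and Lmx1b peaks were highest with 58.0%. No member peak was more than 50% repeat sequence, against 3.10% of all shared distal peaks.

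The last question was which short sequence motifs the 67 peaks hold, searched on both strands of the 150 bp. The homeodomain core TAATTA, which LIM and many other homeodomains bind, was in 1 peak (1.49%, 95% Wilson interval 0.264 to 7.98), against 2.65% of all shared distal peaks. That peak, chr2:38431676-38431825 at Lhx2, also holds the longer form CTAATTA (1.06% of all peaks), which contains the core, and had signals of 62 and 37. The TCF/LEF forms of Wnt signalling, CTTTGAA and CTTTGAT, were in 0 peaks (interval up to 5.42%) and 1 peak, against 3.48% and 2.13%.

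The SP/KLF box GGGCGG was in 9 peaks (13.4%, interval 7.23 to 23.6), against 6.84%, and 8 of the 9 were at Lmx1b, whose peaks are also the richest in GC. The full NFI palindrome was in 2 peaks, at Lmx1a and En1 (2.99%, interval 0.822 to 10.2), against 0.289%. These were the only motifs of the 17 whose interval left out the background. The intervals treat the peaks as independent and were not adjusted for the number of motifs, so this is no test. In 300 bp centred on the peak, added after the data were seen, SP/KLF was in 10 peaks (14.9%, interval 8.31 to 25.3), against 10.6% of all, which lies inside the interval. NFI stayed at 2 peaks there, against 0.319%. The Lmx1a peak with the NFI match is the strongest shared distal peak of that gene. It also holds the core of the CTCF site, bound by the factor that anchors chromatin loops. That core was in 4 peaks, 1 each at Lmx1b, Lmx1a, Lhx2 and Lhx9, or 5.97% against 3.01%. The farthest Lhx9 site is among them.

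The other motifs lay near their backgrounds. The E-box CAGCTG, bound by myogenic and other basic helix-loop-helix factors, was in 15 peaks (22.4% against 20.1%), 6 of them at Lmx1b and 6 at Lhx2, and the E-box CATATG was in 2 (against 3.52%). The Meis core TGACAG was in 11 (16.4% against 11.6%), the Runx core TGTGGT in 8 (11.9% against 12.5%) and the TEAD core GGAATG in 7 (10.4% against 13.3%). AP-1 (TGANTCA) was in 3 (against 6.49%) and the Sox form AACAATG in 1 (against 2.13%). The posterior Hox form CCAATAAA, the GLI site GACCACCCA and the Ets site CCGGAAGT were in 0, against 0.863%, 0.216% and 0.278%. A match says only that the letters are present and shows no binding.

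**Figure D5:**
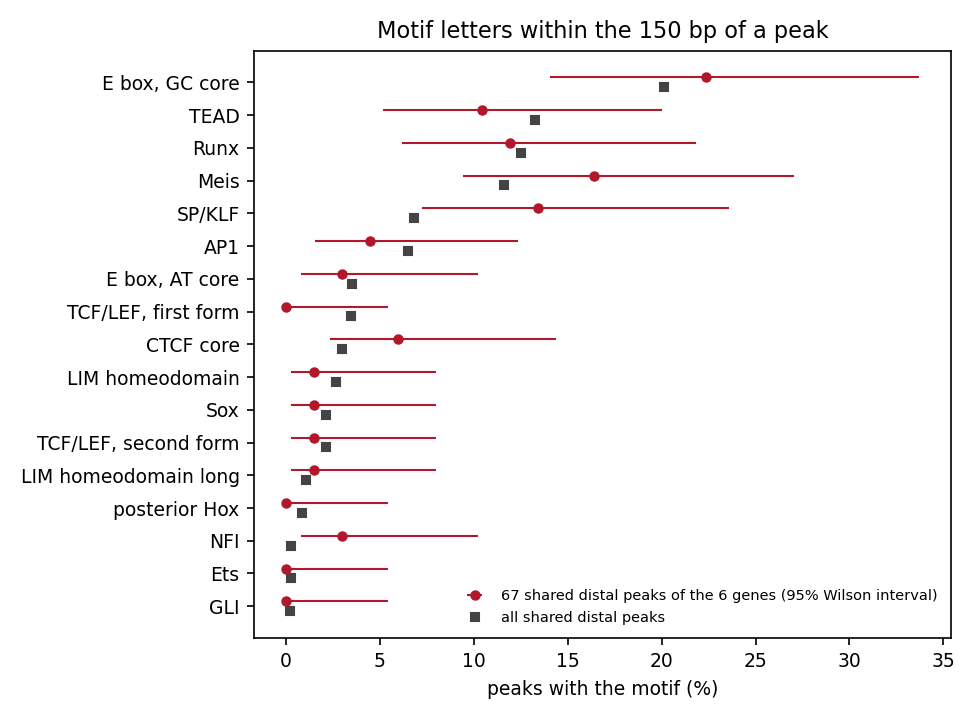
Motif matches in the 67 shared distal peaks of the 6 genes (circles, with 95% Wilson intervals) and in all 75905 shared distal peaks (squares), as percent of peaks on the horizontal axis. The SP/KLF box, at 13.4% against 6.84%, and NFI, at 2.99% against 0.289%, are the motifs whose interval leaves out the value for all peaks. The intervals are not adjusted for the number of motifs.

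Related genes give the setting. Of 8 other LIM homeobox genes (Lhx1, Lhx3, Lhx4, Lhx5, Lhx6, Lhx8, Isl1 and Isl2) 6 had a shared TSS peak, against 65.1% of all genes, and Lhx5 and Lhx6 did not. The 6 genes had a median of 11.5 shared distal peaks and 9.79 per 100 kb, against 3.5 and 3.49 for these 8 and 1 and 4.79 over all genes. Among the 8, Isl2 had the most with 7, and Isl1, which acts in early hindlimb, had 1. Both lists stand as counts, and their difference was not tested.

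Of 9 LIM cofactor genes (Lmo1 to Lmo4, Ldb2, Ssbp2 to Ssbp4 and Rlim) all 9 had a shared TSS peak, against 65.1% of all genes, with a median of 8 shared distal peaks against 1 and 5.61 per 100 kb against 4.79. Ldb1 had 4 in 22.461 kb of territory and its paralog Ldb2 had 27 in 452.8 kb, which is 17.8 per 100 kb at Ldb1 against 5.96 at Ldb2. The Ldb1 density rests on 4 peaks in a small territory, and with hotspots in place of peaks it was 8.90 per 100 kb. Lmo4, a LIM-only competitor for Ldb1, had 9 shared distal peaks.

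All 10 genes of the dorsoventral signal list (Wnt7a, Lrp6, Ctnnb1, Bmpr1a, Bmp2, Bmp4, Bmp7, Msx1, Msx2 and En2) had a shared TSS peak, against 65.1% of all genes, with a median of 11 shared distal peaks against 1 and 8.39 per 100 kb against 4.79. Bmp7, a ligand of the BMP pathway that acts upstream of En1, had the most with 20. Bmpr1a, a BMP receptor, had 6. Wnt7a, the dorsal signal that En1 represses, had 1 TSS peak in each replicate and 7 and 11 distal peaks, of which 2 were shared. En1 had 11 shared distal peaks and its paralog En2 had 1.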

How the data were processed

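DNase-seq was measured in 2 libraries of 1 group, and for each the authors deposited a peak list with a signal per peak (its scaling is unstated) and hotspots with a −log10 q-value. Per the labels, the build is mm10. No aligner or peak caller is given in the sources used here. Peaks were called per library. Read depth is unknown, so no interval here rests on reads.

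Peaks on the autosomes, X and Y were used, which left out 291 and 277 peaks. Genes and TSSs came from GENCODE M21 and sequence from GRCm38.p6, whose chromosome lengths fit the peaks. Shares have 95% Wilson intervals. With 1 group, no test was made, and list counts stand beside the same count over all genes or peaks. Named were all 6 genes, their TSS peaks, their 3 strongest, nearest and farthest shared distal peaks, those at the limits, and listed relatives. The members, lists and motifs were chosen with earlier results of these data known. Distance is to the nearest TSS of the gene unless the outermost is named. Alternatives varied the overlap, signal, windows, distance, hotspots and replicates. The hotspot density and the 300 bp motif window for SP/KLF and NFI were added after seeing the data. The scripts were tested on simulated peaks and ran in Python 3.11.15 with numpy 2.4.6, pandas 2.3.3, scipy 1.17.1 and matplotlib 3.10.9.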

Additional observations from a re-analysis of the deposited data

How the results depend on the processing

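Of 30 recomputed values that answer a comparison, 18 stayed within their spread or 1.5 times the count. The 4 genes with a shared TSS peak became 2 with only the outermost start (Lhx2 and Lhx9 dropped out, against 59.1% of all genes open) and ranged from 5 to 6 with a replicate left out. Lhx9 also dropped out with the 50000 strongest peaks. Lmx1b counted as open with hotspots, with a 1000 bp window and without replicate 2, and Lmx1a with either replicate alone. The 67 shared distal peaks became 14 with the 50000 strongest peaks (25.1% of all shared distal peaks remained), 38 within 50 kb, and 99 to 118 with a replicate left out. Their density became 2.05 per 100 kb with the strongest peaks and 14.5 to 17.2 with a replicate left out. Over all genes the distal peaks rose too, from 75905 shared to 126070 in replicate 1 alone and 116833 in replicate 2 alone. The shared percentage was 66.7 with replicate 2 as the base. The median signal percentile was 66.9 with an overlap of at least 1 bp. It was 57.6 with replicate 1 alone, against 47.0 for all its distal peaks. With replicate 2 alone it was 57.1, against 47.4. TAATTA was in 5.97% of peaks in 300 bp, against 6.43% of all. Fewer peaks, longer windows or unshared peaks enter by construction. No paired analysis was possible because there is 1 group. With 2 replicates, unknown depth and mixed cell types, small differences between the genes are not resolved.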
